A study of Homo sapiens with 4 samples.

Results

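The genes described here are 30 genes of cholesterol and fatty acid synthesis, found by symbol among the 53777 rows of the deposited table that carry an Ensembl gene identifier. All 30 had exactly 1 row. They were chosen by function, but with earlier results of these data known. Their shares beside those of all genes tested are therefore descriptions, not independent support. Of the 30, 6 make the isoprenoid precursors of the mevalonate pathway and 11 make cholesterol from them. Another 4 sense or move sterols, and 9 make, desaturate or store fatty acids. Of the 30, 29 reached the mean of 1 FPKM needed for testing, among 12834 genes that did. The delta-6 desaturase gene FADS2 did not.

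The cells are NUGC3, a gastric cancer line, and received either a scramble control or a short hairpin against NIPBL, which encodes the loader of the cohesin ring on chromosomes. There were 4 RNA sequencing libraries: 2 of scramble, 1 of hairpin 1 and 1 of hairpin 7. The labels of all 4 contain the terms DOX and combined without explaining them, and do not say whether the cells were pools or clones. The second scramble label equals the first plus a suffix. Separate cultures are not named for any group, so a p-value here reflects the spread of these 4 libraries alone and that spread may be technical. The series as a whole is about MYC, TYMS and sensitivity to antifolates. Values are FPKM, a read abundance per transcript length and library size.

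Cholesterol is built from acetyl-CoA through mevalonate, isoprenoid diphosphates, squalene and lanosterol. The genes of this route share a feedback control. When sterol in the endoplasmic reticulum is low, the factors SREBP-1 and SREBP-2 (genes SREBF1 and SREBF2) are carried by SCAP to the Golgi, cut free by proteases and enter the nucleus. INSIG proteins hold the complex back when sterol is plentiful. SREBP-2 is best known for sterol genes and SREBP-1 for fatty acid genes, and both work together with NF-Y, which binds CCAAT boxes, and Sp1, which binds GC boxes. In epithelial tumours these genes supply membrane lipid to dividing cells.

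NIPBL was at 23.9 and 23.1 FPKM in scramble, 7.27 FPKM with hairpin 1 and 9.17 FPKM with hairpin 7, so it was low in both knockdown libraries (log2 change -1.42 ± 0.14, SE, limma, adjusted p = 0.0218). Its difference between the hairpins did not pass (limma, adjusted p = 0.0990). Summed FPKM was 682076 with hairpin 7 and from 730732 to 749446 elsewhere, and mitochondrially encoded transcripts took between 9.44% and 12.4% of the FPKM of named genes. The 5 epithelial markers summed to 4077 FPKM with hairpin 1 and from 5041 to 5101 FPKM in the other 3 libraries. With each hairpin, EPCAM, KRT8 and KRT18 were below both scramble libraries and KRT19 and CDH1 above. KRT8 was at 1459 FPKM with hairpin 1 and 1993 FPKM with hairpin 7, and KRT18 at 1368 and 1754 FPKM. EPCAM was lower with hairpin 7, at 166 FPKM against 196 FPKM with hairpin 1. Hairpin 1 also had the highest mitochondrial share. The part of these differences in the results was not tested. The 4 fibroblast markers summed to between 5.75 and 9.53 FPKM, nearly all of it COL1A1, with COL1A2 listed at 0. Leukocyte, endothelial and adipocyte markers each summed to under 1 FPKM, and PTPRC, ADIPOQ and LEP were listed at 0. In RNA from whole cultures, fewer cells with a transcript and less of it per cell cannot be told apart.

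The bases just before the start sites are shown because most of these genes moved together with hairpin 7, as the values below show. RefSeq's promoter table (GRCh38.p14) held 27 of the 30 genes, in 39 windows, some of which overlap. In the 250 bases before the start, 4 motifs were searched on both strands: the sterol regulatory element TCACNCCAC, the CCAAT box CCAAT, the GC box GGGCGG and the E-box CACGTG. The sequences read 5' to 3' on the gene's strand, with sterol regulatory elements and CCAAT boxes (ATTGG on the other strand) in capitals. SREBF2 held the only match to the sterol regulatory element, MVK and NSDHL had the most CCAAT boxes, MSMO1 came next in CCAAT boxes, and SCD and HMGCS1 had the widest gaps between the hairpin libraries.
SREBF2 (chr22:41832855-41833104, plus strand): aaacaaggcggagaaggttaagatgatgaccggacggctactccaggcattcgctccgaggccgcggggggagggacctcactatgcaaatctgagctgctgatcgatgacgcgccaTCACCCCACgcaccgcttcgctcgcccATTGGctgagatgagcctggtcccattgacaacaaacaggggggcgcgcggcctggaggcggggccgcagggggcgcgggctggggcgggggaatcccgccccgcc
MVK (chr12:109573544-109573793, plus strand): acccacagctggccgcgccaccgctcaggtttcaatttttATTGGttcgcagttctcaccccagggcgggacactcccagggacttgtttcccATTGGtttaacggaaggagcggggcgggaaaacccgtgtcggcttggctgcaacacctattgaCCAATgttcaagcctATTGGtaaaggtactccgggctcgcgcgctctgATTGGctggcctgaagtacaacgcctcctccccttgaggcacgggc
NSDHL (chrX:152830813-152831062, plus strand): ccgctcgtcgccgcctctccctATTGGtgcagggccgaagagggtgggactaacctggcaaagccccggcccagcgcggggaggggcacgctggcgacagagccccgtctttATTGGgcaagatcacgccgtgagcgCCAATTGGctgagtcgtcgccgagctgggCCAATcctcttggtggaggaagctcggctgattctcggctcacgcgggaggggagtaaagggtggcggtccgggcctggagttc
MSMO1 (chr4:165327419-165327668, plus strand): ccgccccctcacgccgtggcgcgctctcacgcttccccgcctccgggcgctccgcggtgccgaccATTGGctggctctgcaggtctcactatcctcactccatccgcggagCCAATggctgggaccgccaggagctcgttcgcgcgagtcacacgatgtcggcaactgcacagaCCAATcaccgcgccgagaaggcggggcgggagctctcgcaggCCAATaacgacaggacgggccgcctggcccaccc
HMGCS1 (chr5:43313413-43313662, minus strand): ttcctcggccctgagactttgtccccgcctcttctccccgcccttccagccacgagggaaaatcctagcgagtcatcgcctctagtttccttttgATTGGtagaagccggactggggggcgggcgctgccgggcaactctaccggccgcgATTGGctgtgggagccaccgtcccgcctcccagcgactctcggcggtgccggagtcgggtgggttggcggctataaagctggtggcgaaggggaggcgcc
SCD (chr10:100346983-100347232, plus strand): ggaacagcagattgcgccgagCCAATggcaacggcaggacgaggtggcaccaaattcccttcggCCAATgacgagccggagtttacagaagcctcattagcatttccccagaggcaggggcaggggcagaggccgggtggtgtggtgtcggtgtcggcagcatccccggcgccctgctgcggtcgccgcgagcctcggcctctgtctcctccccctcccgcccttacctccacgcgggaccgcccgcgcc
In NSDHL, 2 of the 5 CCAAT matches overlap each other on opposite strands.

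A CCAAT box was present in at least 1 window of 20 of the 27 genes (74.1%), against 37.0% of the 27305 genes in the table. The GC box was present in 26 of 27 (96.3%, against 46.2%), the E-box in 2 (7.41%, against 7.73%) and the sterol regulatory element in 1 (3.70%, against 1.09%). The 27305 genes were not limited to those expressed enough for testing here, whereas nearly all members were, so these shares compare unlike sets. Of the genes that differed between the hairpin libraries in the test below, 17 of 18 with a window held a CCAAT box, and of the other members 3 of 9 did. CYP51A1 was the gene of the first kind without one. The other members include FADS2, which was not tested, and are mostly fatty acid genes, so the split largely follows the groups of genes. These are matches of letters, not sites of binding, and no match says only that these letters are not in the window.

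The first comparison took NIPBL knockdown as 2 libraries against 2. Of the 29 genes tested, 1 rose (3.45%) and 0 fell (limma, adjusted p under 0.05), where 1.45% of all genes tested rose and 1.11% fell, so calls were few in the members as they were over all genes. At an unadjusted p under 0.05 there were 3 higher and 1 lower, where the background was 13.6% and 12.8%. The median log2 change of the 29 was 0.41, against -0.013 over all genes tested. Both hairpins lay above both scramble libraries for 10 genes (34.5%, background 29.5%) and below both for 3 (10.3%, background 30.8%). For 1 of the 10, TM7SF2, both did so by at least 1.5-fold (3.45%, background 3.3%).

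The gene that rose was TM7SF2 (ENSG00000149809, chromosome 11), a sterol C14 reductase that acts just after lanosterol is demethylated. It was at 2.87 and 3.00 FPKM in scramble, 8.53 FPKM with hairpin 1 and 11.5 FPKM with hairpin 7, so the groups did not overlap. Its log2 change was 1.47 ± 0.17 (SE of the limma fit, adjusted p = 0.0334), from a scramble mean of 2.94 ± 0.0919 FPKM (SD, n = 2). It lost its call without scramble 1 (limma, adjusted p = 0.294) or scramble 2 (adjusted p = 0.306). TM7SF2 shares exon sequence with VPS51 on the same strand, which was at 54.4 and 52.6 FPKM in scramble, 52.2 FPKM with hairpin 1 and 63.6 FPKM with hairpin 7. PMVK, which adds the second phosphate to mevalonate, came next in the pathway's order of p-values. It was at 17.2 and 17.3 FPKM in scramble, 24.1 FPKM with hairpin 1 and 26.1 FPKM with hairpin 7 (log2 change 0.51 ± 0.10, SE, limma, adjusted p = 0.0692).

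With hairpin 7 nearly the whole cholesterol pathway was higher than in scramble, and with hairpin 1 it was not. Of the 29 genes, 21 (72.4%) lay at least 1.5-fold above both scramble libraries with hairpin 7, where 8.26% of all genes tested did, and 0 lay as far below, where 6.64% did. With hairpin 1, 1 gene lay that far above (3.45%, background 6.02%) and 2 that far below (6.90%, background 4.66%). Counting any distance, hairpin 7 was above both scramble libraries for 26 genes (89.7%, background 41.9%) and below both for 3 (10.3%, background 47.0%). Hairpin 1 was above both for 10 (34.5%, background 44.4%) and below both for 15 (51.7%, background 42.6%). The folds are on the log2(FPKM + 1) scale, and both hairpins are set against the same scramble libraries. In limma fits of each hairpin library alone against scramble, 24 genes were higher and 0 lower with hairpin 7 (background 15.7% and 19.6%). With hairpin 1, 2 were higher and 7 lower (background 11.1% and 11.6%). Each of these fits assumes that the lone hairpin library varies like the scramble libraries.

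**Figure D1:**
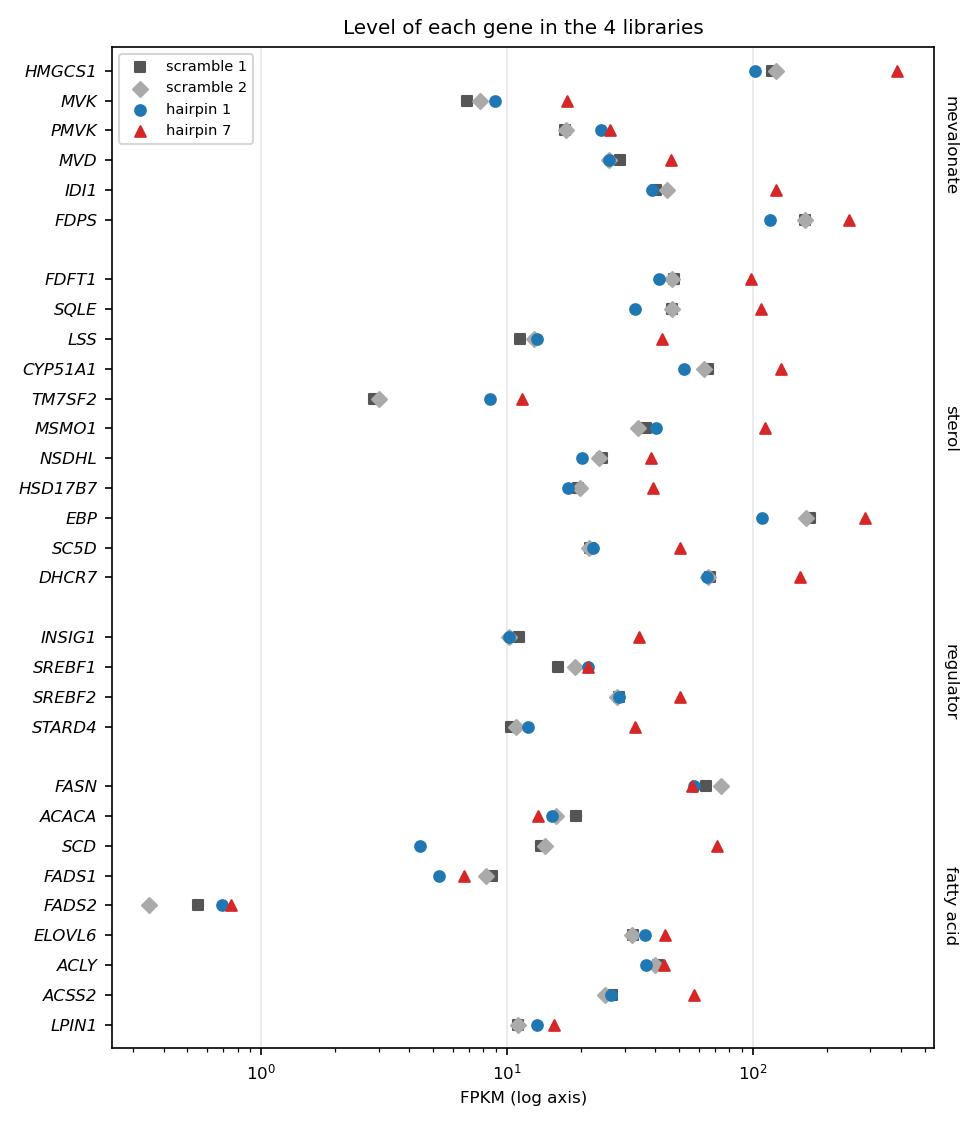
FPKM of each of the 30 genes in the 4 libraries, on a log axis, grouped as mevalonate, sterol, regulator and fatty acid genes; each mark is 1 library. The hairpin 7 triangles stand to the right of the other marks for the mevalonate and sterol genes, and FASN, ACACA and FADS1 are the genes where they stand left of both scramble marks.

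The difference between the hairpin libraries was then tested directly, a test added after the values were seen. The fit took its spread from the scramble libraries and compared 1 hairpin library with the other, not the hairpins as treatments. Of the 29 genes, 20 (69.0%) were higher with hairpin 7 and 0 lower (limma, adjusted p between 0.0253 and 0.0475), where 3.84% of all genes tested were higher and 5.36% lower. The 20 ranged from 1.77-fold for SREBF2 to 16.1-fold for SCD in FPKM. Of the 29, 16 (55.2%) were at least 2-fold higher with hairpin 7 on the log2(FPKM + 1) scale, where 1.51% of all genes tested were. The median log2 difference of the 29 was 1.10, against -0.035 over all genes tested. A fit without a mean trend called 0 of 12834 genes (4207 at an unadjusted p under 0.05). In it the 20 genes had adjusted p between 0.0706 and 0.0960, and all 20 had an unadjusted p under 0.05.

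**Figure D2:**
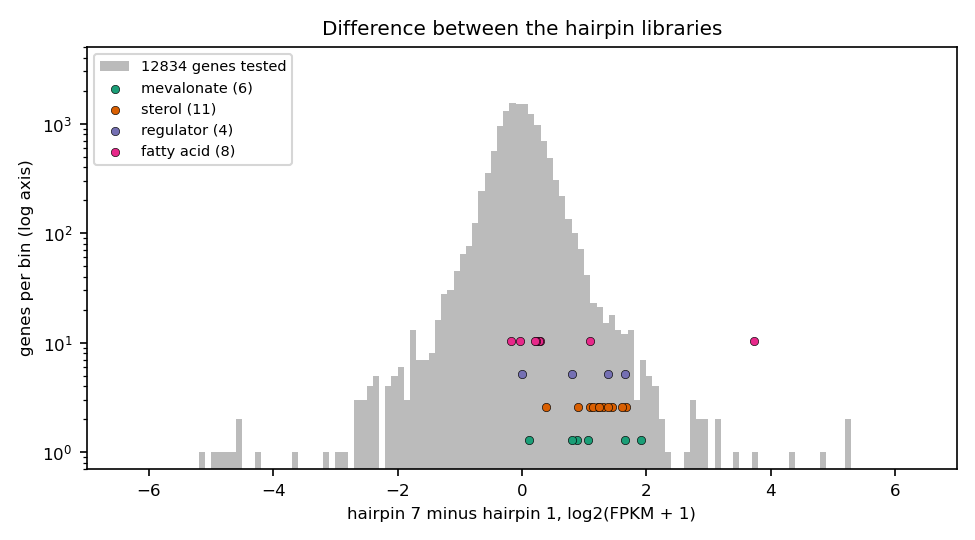
Histogram of the hairpin 7 minus hairpin 1 difference in log2(FPKM + 1) over the 12834 genes tested (grey, genes per bin on a log axis), with the 29 tested members as coloured points at heights that only separate the 4 groups. The mevalonate and sterol points lie right of 0, and SCD lies apart at 3.74.

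In the mevalonate pathway all 6 genes were above both scramble libraries with hairpin 7, and 2 were above and 3 below with hairpin 1. HMGCS1 (ENSG00000112972, chromosome 5) makes HMG-CoA, the substrate of the step that commits carbon to sterols. It was at 119 and 124 FPKM in scramble, 102 FPKM with hairpin 1 and 385 FPKM with hairpin 7. Hairpin 7 was thus far above the rest and hairpin 1 below both scramble libraries. The log2 difference from scramble was 1.65 ± 0.04 with hairpin 7 and -0.26 ± 0.04 with hairpin 1 (SE, limma, adjusted p = 0.00687 and 0.0429), and that between the hairpins was 1.91 ± 0.05 (SE, adjusted p = 0.0253). An antisense gene overlapping HMGCS1, AC114947.2, was at 0.800 and 0.740 FPKM in scramble, 0.600 FPKM with hairpin 1 and 3.28 FPKM with hairpin 7, and without a stated strand setting its reads cannot be told from those of HMGCS1.

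IDI1, which interconverts the isoprenoid units, was at 40.4 and 44.7 FPKM in scramble, 38.7 FPKM with hairpin 1 and 124 FPKM with hairpin 7. Hairpin 7 stood alone again, at 291% of the scramble mean. FDPS, which joins those units into farnesyl diphosphate, was at 163 and 162 FPKM in scramble, 117 FPKM with hairpin 1 and 245 FPKM with hairpin 7. It lay on both sides of scramble, with log2 differences of 0.59 ± 0.03 with hairpin 7 and -0.47 ± 0.03 with hairpin 1 (SE, limma, adjusted p = 0.00933 and 0.0183). MVK, the first mevalonate kinase, was at 6.86 and 7.76 FPKM in scramble, 8.95 FPKM with hairpin 1 and 17.4 FPKM with hairpin 7. It passed between the hairpins (limma, adjusted p = 0.0475), but not with a pseudocount of 0.1 (0.0557). Its exons overlap those of MMAB, a cobalamin enzyme gene on the opposite strand, which was at 11.5 and 13.4 FPKM in scramble, 11.5 FPKM with hairpin 1 and 20.3 FPKM with hairpin 7. MVD, which decarboxylates the doubly phosphorylated product, was at 28.83 and 25.99 FPKM in scramble, 25.99 FPKM with hairpin 1 and 46.2 FPKM with hairpin 7, so only hairpin 7 left the range of scramble. PMVK differed from its neighbours in the pathway in being 1.08-fold apart between the hairpins (log2 difference 0.11 ± 0.06, SE, limma, adjusted p = 0.295).

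In the steps from farnesyl diphosphate to cholesterol all 11 genes were above both scramble libraries with hairpin 7, between 160% of the scramble mean for NSDHL and 391% for TM7SF2. With hairpin 1, 4 were above and 7 below. SQLE, squalene epoxidase and a slow step of the route, was at 46.7 and 46.6 FPKM in scramble, 33.2 FPKM with hairpin 1 and 108 FPKM with hairpin 7. Scramble libraries were nearly equal, and the hairpins lay on either side of them. FDFT1, squalene synthase, was at 47.9 and 47.0 FPKM in scramble, 41.6 FPKM with hairpin 1 and 98.0 FPKM with hairpin 7. LSS, which closes the sterol rings to give lanosterol, was at 11.3 and 12.9 FPKM in scramble, 13.2 FPKM with hairpin 1 and 42.5 FPKM with hairpin 7. Its hairpin 7 level was 351% of the scramble mean, while hairpin 1 was at 109%.

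CYP51A1, the lanosterol demethylase, was at 65.3 and 63.4 FPKM in scramble, 52.2 FPKM with hairpin 1 and 130 FPKM with hairpin 7. MSMO1, the C4 methyl oxidase, was at 36.8 and 34.1 FPKM in scramble, 40.4 FPKM with hairpin 1 and 111 FPKM with hairpin 7. Hairpin 7 stood above the other 3 libraries for both genes, while hairpin 1 was below scramble for CYP51A1 and above it for MSMO1. NSDHL and HSD17B7 complete the removal of the C4 methyl groups, and had 20.2 and 17.7 FPKM with hairpin 1 and 38.4 and 39.2 FPKM with hairpin 7, against scramble means of 23.95 ± 0.453 and 19.5 ± 0.247 FPKM (SD, n = 2). HSD17B7 has a near copy, the pseudogene HSD17B7P2, at 1.86 and 1.81 FPKM in scramble, 1.65 FPKM with hairpin 1 and 3.43 FPKM with hairpin 7, and how the reads were shared between them is uncertain. Antisense genes overlap several other members, IDI1, FDPS, LSS and CYP51A1 among them, and pseudogenes of FDPS and CYP51A1 exist. The same kind of uncertainty applies there, at lower listed values. The antisense genes of IDI1, LSS and CYP51A1 were listed at 0 FPKM in every library. That of FDPS was at most 0.87 FPKM, and the pseudogenes were at most 0.54 FPKM.

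EBP, the sterol isomerase, was the highest of the 11 in FPKM. It was at 170 and 165 FPKM in scramble, 109 FPKM with hairpin 1 and 284 FPKM with hairpin 7. It was 1 of the 2 genes at least 1.5-fold below both scramble libraries with hairpin 1, the other being SCD. SC5D, the C5 desaturase, was at 21.7 and 21.6 FPKM in scramble, 22.3 FPKM with hairpin 1 and 50.2 FPKM with hairpin 7. DHCR7, a reductase of the last steps, was at 67.0 and 65.7 FPKM in scramble, 65.0 FPKM with hairpin 1 and 155 FPKM with hairpin 7. For SC5D and DHCR7 hairpin 1 was close to the scramble mean, at 103% and 98.0% of it. Of the 11 genes, TM7SF2 was the one that did not pass the test between the hairpins (log2 difference 0.39 ± 0.11, SE, limma, adjusted p = 0.110).

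**Figure D3:**
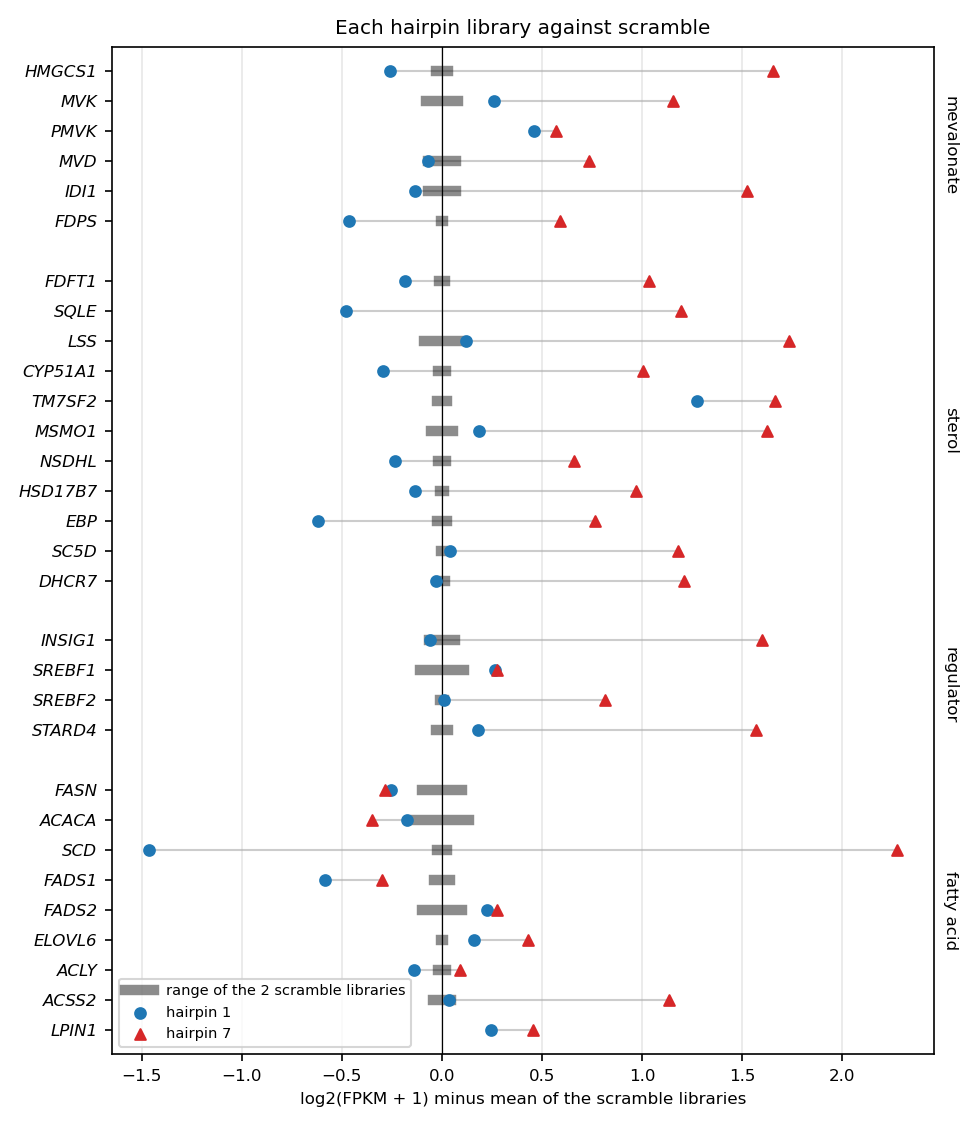
log2(FPKM + 1) of each hairpin library minus the mean of the scramble libraries, for the 30 genes (circles hairpin 1, triangles hairpin 7, grey bars the range of the 2 scramble libraries). The hairpins lie far apart for most mevalonate and sterol genes and for SCD, and close together for PMVK, SREBF1, FASN and FADS2.

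Among the genes that regulate the route, INSIG1 is both a brake on SREBP and a standard target of it. It was at 11.2 and 10.1 FPKM in scramble, 10.2 FPKM with hairpin 1 and 34.3 FPKM with hairpin 7. Here hairpin 1 lay within the scramble libraries and hairpin 7 at 322% of their mean (log2 difference between hairpins 1.66 ± 0.10, SE, limma, adjusted p = 0.0334). STARD4, which carries cholesterol between membranes, was at 10.3 and 10.8 FPKM in scramble, 12.1 FPKM with hairpin 1 and 33.2 FPKM with hairpin 7. SREBF2 was at 28.4 and 27.9 FPKM in scramble, 28.4 FPKM with hairpin 1 and 50.3 FPKM with hairpin 7 (log2 difference between hairpins 0.80 ± 0.06, SE, limma, adjusted p = 0.0341). SREBF1 was at 16.1 and 18.9 FPKM in scramble, 21.3 FPKM with hairpin 1 and 21.3 FPKM with hairpin 7, with a log2 difference between hairpins of 0.0052 ± 0.14 (SE, limma, adjusted p = 0.984). Both hairpins were above both scramble libraries for SREBF1, a change that did not pass (log2 change 0.27 ± 0.12, SE, limma, adjusted p = 0.223). RAI1 overlaps SREBF1 on the opposite strand and was at 10.97 and 10.77 FPKM in scramble, 12.6 FPKM with hairpin 1 and 10.1 FPKM with hairpin 7.

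Fatty acid genes did not move as a block. SCD (ENSG00000099194, chromosome 10), which puts the first double bond into saturated fatty acids, had the widest gap of all members. It was at 13.7 and 14.2 FPKM in scramble, 4.43 FPKM with hairpin 1 and 71.3 FPKM with hairpin 7. Hairpin 1 was at 31.7% and hairpin 7 at 511% of the scramble mean, with log2 differences from scramble of -1.46 ± 0.08 and 2.27 ± 0.06 (SE, limma, adjusted p = 0.0147 and 0.00687). ACSS2, which makes acetyl-CoA from acetate, was at 26.6 and 24.9 FPKM in scramble, 26.4 FPKM with hairpin 1 and 57.6 FPKM with hairpin 7. SCD and ACSS2 were the 2 of 8 tested fatty acid genes that passed the test between the hairpins.

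The core enzymes of fatty acid synthesis did not follow. FASN, the synthase itself, was at 64.3 and 73.8 FPKM in scramble, 57.5 FPKM with hairpin 1 and 56.4 FPKM with hairpin 7 (log2 change -0.27 ± 0.11, SE, limma, adjusted p = 0.197). ACACA, the carboxylase that makes malonyl-CoA, was at 19.1 and 15.7 FPKM in scramble, 15.2 FPKM with hairpin 1 and 13.4 FPKM with hairpin 7 (log2 change -0.26 ± 0.14, SE, limma, adjusted p = 0.298). Both hairpins were below both scramble libraries for FASN and ACACA, but the scramble libraries also stood apart, and neither gene passed. ACLY, which makes cytosolic acetyl-CoA from citrate, was at 41.2 and 40.0 FPKM in scramble, 36.8 FPKM with hairpin 1 and 43.4 FPKM with hairpin 7, a change of direction between hairpins that did not pass (adjusted p = 0.0895, limma).

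FADS1, the delta-5 desaturase of polyunsaturated fatty acids, was at 8.70 and 8.20 FPKM in scramble, 5.29 FPKM with hairpin 1 and 6.67 FPKM with hairpin 7. It was the third member with both hairpins below both scramble libraries (log2 change -0.44 ± 0.15, SE, limma, adjusted p = 0.151). Its neighbour FADS2, whose exons overlap it on the opposite strand, was at 0.550 and 0.350 FPKM in scramble, 0.690 FPKM with hairpin 1 and 0.750 FPKM with hairpin 7. FADS2 also shares exon sequence with FEN1 on the same strand. FEN1 was at 74.2 and 75.55 FPKM in scramble, 57.3 FPKM with hairpin 1 and 46.4 FPKM with hairpin 7. How the reads were shared between FADS2 and FEN1 is uncertain. ELOVL6, which lengthens palmitate to stearate, was at 32.5 and 32.2 FPKM in scramble, 36.2 FPKM with hairpin 1 and 44.0 FPKM with hairpin 7 (log2 change 0.30 ± 0.12, SE, limma, adjusted p = 0.214). LPIN1, a phosphatidate phosphatase on the way to triglyceride, was at 11.03 and 11.06 FPKM in scramble, 13.3 FPKM with hairpin 1 and 15.5 FPKM with hairpin 7 (log2 change 0.35 ± 0.12, SE, limma, adjusted p = 0.161). These 2 genes were above both scramble libraries with both hairpins, and neither passed.

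As summed FPKM, which gives most weight to abundant transcripts, the 30 genes came to 1172 FPKM in each scramble library, 1007 FPKM with hairpin 1 and 2360 FPKM with hairpin 7. Mevalonate genes summed to 376 and 382 FPKM in scramble, 317 FPKM with hairpin 1 and 844 FPKM with hairpin 7. Sterol genes summed to 513 and 502 FPKM in scramble, 423 FPKM with hairpin 1 and 1068 FPKM with hairpin 7. Fatty acid genes summed to 218 and 220 FPKM in scramble, 196 FPKM with hairpin 1 and 309 FPKM with hairpin 7. Relative to scramble, the hairpin 7 sum was thus 223% for mevalonate genes, 210% for sterol genes and 141% for fatty acid genes. The hairpin 1 sums were at 83.6%, 83.3% and 89.4%. Within the fatty acid sum, SCD and ACSS2 had the largest rises with hairpin 7, to 71.3 and 57.6 FPKM. FASN, ACACA and FADS1 were below both scramble libraries with hairpin 7. ELOVL6, ACLY, LPIN1 and FADS2 were less than 1.5-fold above them, so the 141% was not shared across the group. The 4 regulator genes summed to 66.0 and 67.8 FPKM in scramble, 71.9 FPKM with hairpin 1 and 139 FPKM with hairpin 7, or 107% and 208% of scramble, so their sum was above scramble with both hairpins. For 12 members hairpin 1 lay below and hairpin 7 above both scramble libraries (41.4%, background 8.31%).

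The other genes of lipid metabolism were taken from 6 lists with 94 genes, of which 88 were tested. Of these 88, 1 rose and 1 fell in the comparison of 2 libraries with 2 (limma), where 1.45% and 1.11% of all genes tested did, and 13 were higher and 11 lower at an unadjusted p under 0.05 (background 13.6% and 12.8%). Between the hairpins 8 were higher and 7 lower with hairpin 7 (limma, background 3.84% and 5.36%). The same backgrounds apply to each list below. Of 12 genes that carry, cut or hold back SREBP 0 rose and 1 fell, and the median difference from scramble was -0.10 with hairpin 1 and -0.17 with hairpin 7. The gene that fell was MBTPS2, the site-2 protease that frees SREBP. It was at 17.5 and 17.8 FPKM in scramble, 10.6 FPKM with hairpin 1 and 10.1 FPKM with hairpin 7 (log2 change -0.72 ± 0.10, SE, limma, adjusted p = 0.0444), so both hairpin libraries lay below scramble. Between the hairpins 1 gene of the list was lower with hairpin 7, named after its values were seen. It was MBTPS1, the site-1 protease that makes the first cut in SREBP, at 42.5 and 41.1 FPKM in scramble, 52.0 FPKM with hairpin 1 and 35.4 FPKM with hairpin 7 (log2 difference between hairpins -0.54 ± 0.06, SE, limma, adjusted p = 0.0388). It was above scramble with hairpin 1 and below with hairpin 7.

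**Figure D4:**
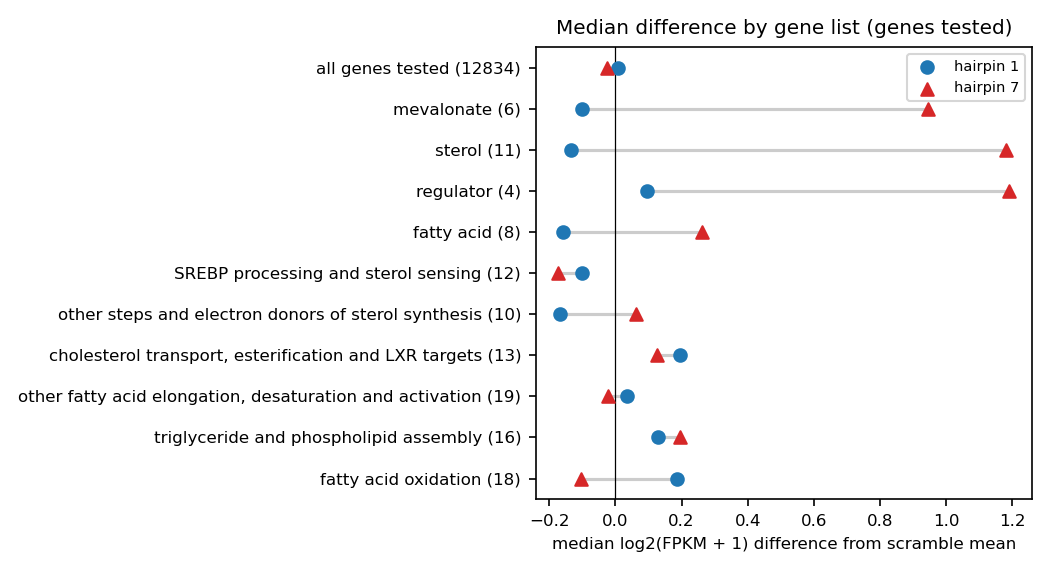
Median difference of each hairpin library from the scramble mean in log2(FPKM + 1), for all genes tested, the 4 groups of members and the 6 other lists (number of genes tested in parentheses). The mevalonate, sterol and regulator groups reach between 0.94 and 1.19 with hairpin 7, while the other lists stay between -0.17 and 0.20 with either hairpin.

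Of 10 other genes of sterol synthesis and its electron supply, 0 passed in the comparison of 2 libraries with 2 (0 higher and 3 lower at an unadjusted p under 0.05, limma). NUS1, LBR and CYB5B had the smallest p-values, with log2 changes of -0.43, -0.39 and -0.38 (limma, adjusted p between 0.0888 and 0.168). Between the hairpins 3 were higher with hairpin 7, named after their values were seen. ACAT2 makes acetoacetyl-CoA, the substrate of HMGCS1, and was at 80.7 and 84.2 FPKM in scramble, 73.4 FPKM with hairpin 1 and 207 FPKM with hairpin 7 (log2 difference between hairpins 1.49 ± 0.05, SE, limma, adjusted p = 0.0253). ERG28, a scaffold of the C4 demethylation enzymes, was at 14.3 and 14.4 FPKM in scramble, 15.2 FPKM with hairpin 1 and 25.4 FPKM with hairpin 7. TMEM97 was at 16.8 and 17.8 FPKM in scramble, 10.8 FPKM with hairpin 1 and 17.9 FPKM with hairpin 7. For TMEM97 the gap came from hairpin 1, since hairpin 7 was close to scramble.

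Among 13 tested genes of cholesterol transport, esterification and LXR targets, 1 rose and 0 fell. It was GRAMD1B, which moves cholesterol from the plasma membrane to the endoplasmic reticulum. It was at 1.12 and 1.35 FPKM in scramble, 5.61 FPKM with hairpin 1 and 4.55 FPKM with hairpin 7 (log2 change 1.44 ± 0.18, SE, limma, adjusted p = 0.0374), well apart from scramble with both hairpins. Between the hairpins 3 genes of lysosomal cholesterol release were higher with hairpin 7, named after their values were seen. NPC1 was at 21.1 and 21.1 FPKM in scramble, 21.3 FPKM with hairpin 1 and 40.0 FPKM with hairpin 7. NPC2 was at 120 and 120 FPKM in scramble, 134 FPKM with hairpin 1 and 252 FPKM with hairpin 7, and LIPA, the acid lipase, at 30.4 and 32.6 FPKM in scramble, 24.8 FPKM with hairpin 1 and 51.5 FPKM with hairpin 7 (limma, adjusted p between 0.0291 and 0.0341 for the 3). MYLIP was lower with hairpin 7 and was likewise named after its values were seen. It encodes a ubiquitin ligase for lipoprotein receptors and is a target of the sterol-activated receptors LXR. It was at 5.39 and 5.59 FPKM in scramble, 10.7 FPKM with hairpin 1 and 3.63 FPKM with hairpin 7, so it ran opposite to the sterol genes (log2 difference between hairpins -1.33 ± 0.11, SE, limma, adjusted p = 0.0347). The LXR targets ABCA1 and ABCG1, also named after their values were seen, were at most 0.29 and 0.05 FPKM in any library and were not tested.

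Of 19 tested genes of fatty acid elongation, desaturation and activation 0 passed (4 higher and 3 lower at an unadjusted p under 0.05, limma). ACSL1 had a log2 change of -0.44, HSD17B12 of 0.42 and ME1 of 0.54 (limma, adjusted p between 0.0916 and 0.107). Between the hairpins 2 of the list were higher with hairpin 7, HACD3 and ACSL3, named after their values were seen. HACD3 was at 53.3 and 52.9 FPKM in scramble, 26.3 FPKM with hairpin 1 and 39.3 FPKM with hairpin 7. Both hairpins were thus below scramble for HACD3. ACSL3 was at 63.5 and 63.7 FPKM in scramble, 61.4 FPKM with hairpin 1 and 86.1 FPKM with hairpin 7. Of 16 genes of triglyceride and phospholipid assembly 0 passed (4 higher and 1 lower at an unadjusted p under 0.05, limma). LPIN3, a relative of LPIN1, was at 6.86 and 7.25 FPKM in scramble, 12.5 FPKM with hairpin 1 and 15.1 FPKM with hairpin 7 (log2 change 0.87 ± 0.13, SE, limma, adjusted p = 0.0520), and AGPAT2 and AGPAT3 had log2 changes of 0.33 and 0.34. PLIN3, a lipid droplet protein named after its values were seen, was the 1 gene of this list that passed between the hairpins, lower with hairpin 7. Of 18 genes of fatty acid oxidation 0 passed (1 higher and 1 lower at an unadjusted p under 0.05, limma), while 4 were lower with hairpin 7 than with hairpin 1. They were CPT1A, ACADM, ECHS1 and ETFB, named after their values were seen. The median of the oxidation list was 0.19 with hairpin 1 and -0.11 with hairpin 7. ACADVL, which starts the oxidation of very long chains, had a log2 change of 0.59 (limma, adjusted p = 0.0825) and ECI2 of -0.25 (limma, adjusted p = 0.174).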

How the data were processed

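RNA was measured in 4 NUGC3 libraries, grouped by the labels into 2 scramble and 2 NIPBL knockdown libraries, 1 per hairpin. The unit is FPKM per gene, as deposited by the authors. The submitters' processing notes name STAR and RSEM, with no version; build, annotation, filters and strand setting were not given in the sources used here. Since FPKM keeps no depth, no counting error is printed. RSEM divides reads among similar copies, whose values are therefore uncertain. Of 344810 rows, the 291033 without an Ensembl identifier (8.47% to 9.27% of a library's FPKM) were left out.

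The 12834 genes averaging at least 1 FPKM entered limma 3.58.1 (R 4.3.3, eBayes with a mean trend) as log2(FPKM + 1), a scale that understates changes of low genes. Tests were two-sided, with Benjamini-Hochberg adjustment across all genes tested and a threshold of 0.05. Residual and prior degrees of freedom were 2 and 2.87 for knockdown against scramble, and 1 and 2.23 for hairpin 7 against hairpin 1, a test added after the data were seen. With 2 libraries against 2, exact permutation cannot reach the threshold and was not used. The fits were tested on simulated data in which all libraries varied alike, which cannot show how a lone hairpin library varies.

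The members and lists were chosen with earlier results of these data known. Named genes were all members, NIPBL and, from each other list, the genes that passed or else the 3 with the smallest p; others are marked where they appear, and 1 gene that the rule chose is not reported here. GENCODE 29, used for overlapping exons and chromosomes, held 29 of the 30 identifiers, ACACA's being the exception. Cell types were checked with markers of epithelium, fibroblasts, leukocytes, endothelium and adipocytes, of which PECAM1 was not matched. Alternatives were the pseudocount, the filter, the scaling, the variance model, each library left out, and the scramble libraries averaged.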

Additional observations from a re-analysis of the deposited data

Results flagged for a closer look

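The hairpin 7 library and the hairpin 1 library differed in 20 of the 29 tested members by a test of the difference itself (limma, adjusted p between 0.0253 and 0.0475). All 20 were higher with hairpin 7, where 3.84% of all genes tested were higher and 5.36% lower. Each hairpin is 1 library, so whether the difference belongs to the hairpin or to the library cannot be told apart. SCD had the largest log2 difference of the members, 3.74. In the mevalonate pathway it was 1.91 for HMGCS1, 1.655 for IDI1, 1.06 for FDPS, 0.89 for MVK and 0.81 for MVD. In the sterol steps it was 1.67 for SQLE, 1.62 for LSS, 1.44 for MSMO1, 1.38 for EBP, 1.298 for CYP51A1, 1.24 for DHCR7, 1.22 for FDFT1, 1.14 for SC5D, 1.10 for HSD17B7 and 0.89 for NSDHL. Among regulators it was 1.66 for INSIG1, 1.39 for STARD4 and 0.80 for SREBF2, and for ACSS2 it was 1.10.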

How the results depend on the processing

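The comparison of 2 libraries with 2 rests on single libraries. Members called ranged from 0 to 24 higher and from 0 to 7 lower when 1 library was left out, their median log2 change from -0.072 (without NIPBL knockdown 2, the hairpin 7 library) to 1.00 (without NIPBL knockdown 1), and all genes called from 0 to 2013 higher and from 0 to 2519 lower. The lows of the counts of members higher and of all genes came from leaving out either scramble library. With no filter 0 members and 1 gene in all were called higher and 0 genes lower, and with the scramble libraries averaged 0 members and 0 genes were called in either direction. The alternatives for the other lists and for the difference between the hairpins were added after the data were seen. The other lists had 0 to 21 genes higher and 0 to 17 lower with a library left out, 2 higher with a pseudocount of 0.1, 0 lower without a mean trend, and 0 in either direction with no filter or with the scramble libraries averaged. Of the members not called, 14 changed sign with a hairpin library left out. Their log2 changes ranged from -1.46 to 2.27 for SCD, -0.62 to 0.76 for EBP, -0.48 to 1.19 for SQLE, -0.47 to 0.59 for FDPS, -0.30 to 1.00 for CYP51A1, -0.26 to 1.65 for HMGCS1, -0.24 to 0.66 for NSDHL, -0.19 to 1.03 for FDFT1, -0.13 to 0.97 for HSD17B7, -0.13 to 1.52 for IDI1, -0.072 to 0.74 for MVD, -0.061 to 1.60 for INSIG1, -0.028 to 1.21 for DHCR7 and -0.14 to 0.092 for ACLY. ACLY was also at 0.0011 with quantile normalization. Between the hairpins, a pseudocount of 0.1 left 19 members higher, with 384 genes higher and 540 lower in all. Setting the median log2 ratio to 0 gave 918 genes higher in all and put FASN at 0.0047, and the fit without a mean trend called 0 members and 0 genes in either direction. That test cannot be run without a scramble library, since no residual degrees of freedom remain. At least 1.3-fold beyond scramble, hairpin 1 had 2 members above and 5 below, and at least 2-fold it had 1 below. No paired analysis was possible because the labels give the groups no shared replicate numbers. The cause of these changes was not tested. Without counts the read depth is unknown, so its limit on low genes such as FADS2 could not be computed.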
